A study of Mus musculus with 5 samples.

Results

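The glucocorticoid and corticotropin-releasing hormone genes of the stress axis were examined in the hippocampal pyramidal layer of newborn mice. The group held 10 named genes, and its members were all array features whose annotated symbol was one of them: the corticosteroid receptors Nr3c1 and Nr3c2, the hormone Crh, its receptors Crhr1 and Crhr2, its binding protein Crhbp, the receptor co-chaperone Fkbp5, the steroid enzyme Hsd11b1, and the steroid-induced genes Tsc22d3 and Sgk1. Of the 10, 8 were represented, by 17 of the 44290 array features, and Nr3c2 and Crh were not analysed here.

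In the stress axis, hypothalamic corticotropin-releasing hormone drives the pituitary and through it the adrenal gland, which in mice releases corticosterone. The hormone enters cells, binds the glucocorticoid receptor held by a chaperone complex, and the receptor then moves to the nucleus and binds DNA. The hippocampus is rich in both corticosteroid receptors and takes part in ending the stress response, and the newborn mouse passes through a period of weak adrenal response to stress.

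Timed pregnant CD1 dams were injected subcutaneously with 20 mg/kg cocaine hydrochloride 2 times a day from gestational day 8 to 19, and saline-control dams received the vehicle on the same schedule and were pair-fed. Pups of both groups were fostered to surrogate dams from birth, and males were taken on postnatal day 3 from 10 litters per group. The pyramidal layer, the band of excitatory neurons across the hippocampal regions, was cut from the right hemisphere by laser. RNA of both groups was hybridised together on 5 two-colour whole genome arrays, cocaine always in 1 Alexa dye and saline in the other, with no dye swap.

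Each array gave a log2 ratio of its 2 channels. Its direction was not stated and was likely cocaine over saline, going by the channel order, so a positive value here means likely higher after cocaine. The labels did not say that the arrays came from separate litters, and p-values measure only the spread between arrays, which may be technical. The dyes cannot be told apart from the treatment. The deposited values held no channel intensities, so the level of a gene, and with it the presence of pyramidal cell markers, could not be read. Between 19745 and 39470 of 44290 features had a usable ratio on an array, the fewest on array 5, and array medians ran from -2.68 to 0.26 on the log2 scale. Ratios were therefore taken relative to each array's median.

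No stress axis gene passed the test. Of the 8 measured genes, 0 had a limma adjusted p under 0.05, beside 7.05% of the 28035 genes and unnamed features tested (5.89% higher and 1.16% lower). At an unadjusted limma p under 0.05 the count was 1 of 8, Crhr1, beside 23.8% of all tested. An ordinary test of each mean against 0, on the gene's own spread alone, called 0 of the 8 with the same adjustment. Of the 8 means, 6 lay below 0 and 2 above, with a median of -0.39 on the log2 scale, and over all tested 55.8% lay below 0 with a median of -0.14. Without array 1 or array 2 the calls over all tested dropped from 1976 to 64 and 76, and the count of stress axis genes stayed at 0. All 8 passed the requirement of 3 arrays. Values at an upper limit were taken as not measured, with no matching lower limit, so this requirement can depend on direction. Fewer cells of a type and less RNA per cell cannot be told apart in such bulk tissue.

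**Figure D1:**
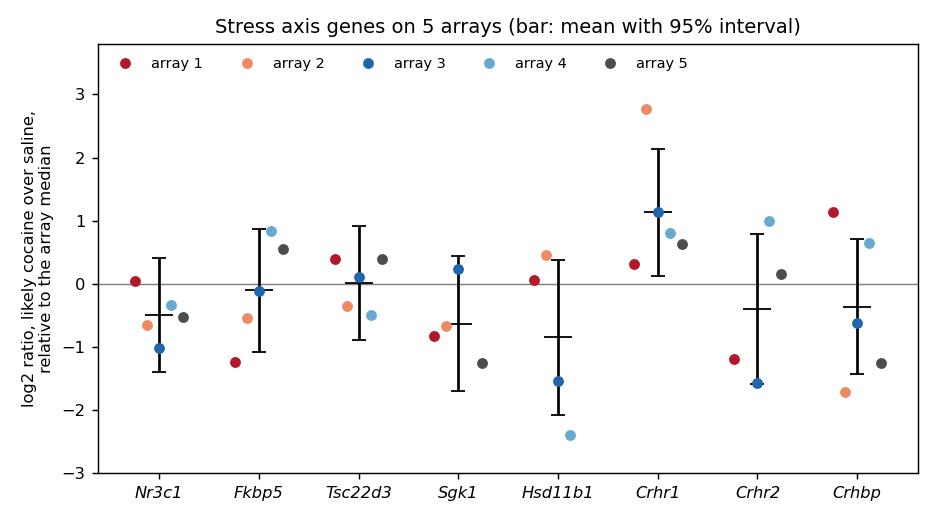
Log2 ratio, likely cocaine over saline and relative to the array median, of each measured stress axis gene on arrays 1 to 5 (points), with the mean and its 95% limma interval (bars). The interval of Crhr1, 0.13 to 2.13, lies above 0, and the intervals of the other 7 genes span 0.

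The letters that the receptor recognises were searched for in the sequence before the start sites, since Sgk1 and Tsc22d3 are textbook direct targets of it. Binding itself was not measured. The glucocorticoid receptor binds as a dimer to a palindrome of the 6 letters AGAACA, a gap of 3 letters and TGTTCT. Both strands were searched in the 250 bases before each RefSeq start site (GRCm38.p6). Of the 8 measured genes 7 had an entry there, with 14 start sites. Of these starts 6 belong to Sgk1 and 3 to Tsc22d3. Nr3c1 had no entry. The single site AGAACA, counted wherever it occurs, stood before 4 of the 14 starts, 3 of Sgk1 and 1 of Tsc22d3, and in 16.1% of all 32851 windows of that length. The full palindrome, which contains 2 of these, stood in 3 of the 32851 windows (0.00913%), and 1 of these was before an Sgk1 start. The 2 stretches printed here show the palindrome of Sgk1, at -189 from the start site 21993890 of chromosome 10 on the plus strand, and the single site of Tsc22d3 on the minus strand of chromosome X. Capitals mark the matches, and a match describes the letters only.
Sgk1 chr10:21993640-21993739: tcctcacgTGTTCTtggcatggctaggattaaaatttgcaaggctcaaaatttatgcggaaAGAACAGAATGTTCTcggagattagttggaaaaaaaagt
Tsc22d3 chrX:140600655-140600754: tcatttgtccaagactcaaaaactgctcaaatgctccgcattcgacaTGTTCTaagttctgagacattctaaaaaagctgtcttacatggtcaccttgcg

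Nr3c1 encodes the glucocorticoid receptor itself. Its log2 ratio was 0.04, -0.65, -1.01, -0.33 and -0.53 on arrays 1 to 5. It was below 0 on 4 of 5 arrays and close to 0 on array 1. The mean was -0.50 ± 0.39 (SD, n = 5), with a 95% interval of -1.40 to 0.40 and a limma adjusted p of 0.50. An exact permutation test that flips the signs of the arrays (two-sided) gave p = 0.125, and 5 arrays allow no p under the threshold. A mean of -0.50 is a ratio of 0.71, and the interval left room for a ratio from 0.38 to 1.32.

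The 4 features of Nr3c1 did not give 1 answer. Feature 12958 had 2.36 on array 1, the 94.7th percentile of that array, while feature 29813 had -3.30 on the same array, the 0.4th percentile, so the gene's value of 0.04 there is an average over opposite extremes. Feature 29813 was usable on 2 arrays only. Feature 41180, usable on all 5 arrays, had 1.07, -1.38, -1.44, -0.81 and -0.53. It was above 0 on array 1 alone. Feature 40648 had -1.08, -0.39 and -0.44 on arrays 2 to 4, the only arrays on which it was usable, and was below 0 on each. On array 5 it stood at the upper limit of the values, taken as not measured, and features 12958 and 29813 were listed at 0. The gene's value on array 5 is therefore feature 41180 alone. With zeros and limit kept, the gene's mean was 0.40. Features 12958, 40648 and 41180 carry the same RefSeq transcript. Features 12958 and 41180 differed by 0.83 ± 0.46 within arrays (SD, n = 4), in 1 direction on 4 of 4 arrays, with an exact sign-flip p of 0.125, the smallest that 4 arrays allow. Features 12958 and 40648 differed by 0.10 ± 0.81 (SD, n = 3, exact sign-flip p = 1), and features 40648 and 41180 by 0.57 ± 0.41 (SD, n = 3, exact sign-flip p = 0.25, the smallest that 3 arrays allow).

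Fkbp5 encodes a co-chaperone that lowers the hormone affinity of the receptor and is itself induced by it. On arrays 1 to 5 it had log2 ratios of -1.24, -0.55, -0.11, 0.83 and 0.55. The values lay below 0 on arrays 1 to 3 and above 0 on arrays 4 and 5. They averaged -0.10 ± 0.83 (SD, n = 5), with a 95% interval of -1.08 to 0.87 and a limma adjusted p of 0.92. Over arrays 3 to 5 alone the mean was 0.42, so its sign rests on arrays 1 and 2, and without array 1 or array 2 it was 0.18 and 0.0072. The 3 features disagreed as well. Feature 17682 reached 3.58 on array 4, the 99.3rd percentile, where features 22851 and 23347 both had -0.54.

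Tsc22d3 encodes the glucocorticoid-induced leucine zipper, through which the hormone restrains inflammatory signalling. Its log2 ratio was 0.39, -0.35, 0.11, -0.50 and 0.40. The arrays were split on both sides of 0 and none was far from it. The mean was 0.01 ± 0.42 (SD, n = 5), the closest to 0 of the 8 genes, with a 95% interval of -0.89 to 0.91 and a limma adjusted p of 0.99. Leaving out array 1, 3 or 5 turned the sign, to -0.085, -0.016 and -0.087.

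Beneath that mean the features of the gene differed, by a median over arrays of 2.35 between the highest and the lowest, the widest such median of the 5 genes with several features. Feature 23563 had -0.28, -2.52, -1.21 and -1.81 on arrays 1 to 4, and feature 43433 had 1.05, 0.78, 1.04 and 0.54 on the same arrays. The first was below 0 and the second above 0 on every array that measured both, though the files pair both with the same RefSeq transcript. Their within-array difference was -2.31 ± 0.81 (SD, n = 4), with an exact sign-flip p of 0.125, the smallest possible with 4 arrays, and 0.33 after Benjamini-Hochberg adjustment over the 8 feature pairs compared. These pairs were compared after the values had been seen. Feature 18180, annotated to another transcript record, had 0.68, 0.51, -0.22 and 1.74 on arrays 2 to 5. Over 8234 genes with at least 2 features, the means of the first 2 correlated across genes with r = 0.18, so features of 1 gene often differed on these arrays.

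**Figure D2:**
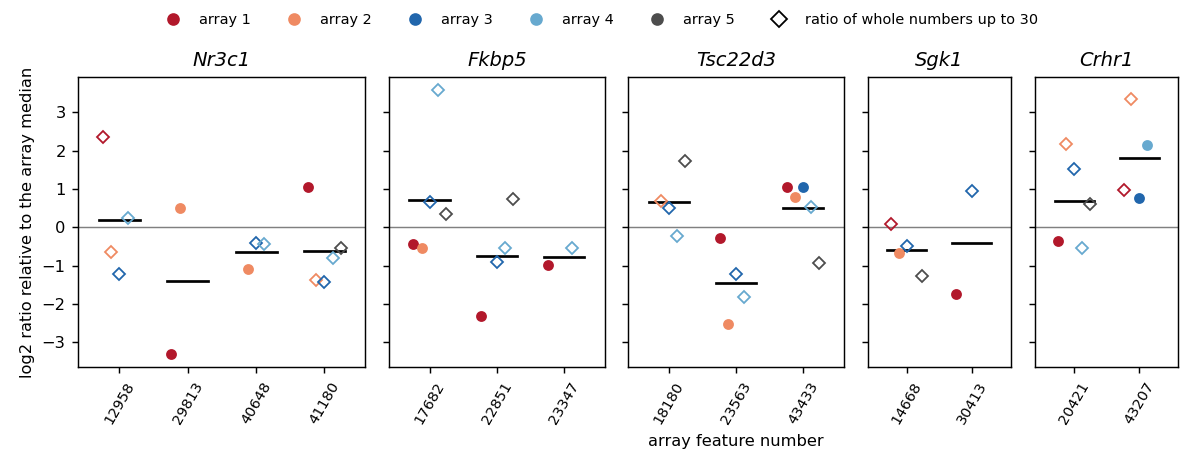
Log2 ratio relative to the array median (vertical axis) of every feature of the 5 stress axis genes with several features, by array feature number, with arrays 1 to 5 in colour and a bar at the mean. Open diamonds are values equal to a ratio of whole numbers up to 30, and the features 23563 and 43433 of Tsc22d3 lie on opposite sides of 0 on arrays 1 to 4.

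Sgk1 encodes the serum- and glucocorticoid-regulated kinase, which raises the surface number of ion channels and transporters. Its log2 ratio was -0.83, -0.67, 0.23 and -1.26 on arrays 1, 2, 3 and 5. It was below 0 on 3 of 4 arrays and not measured on array 4, where both of its features were listed at 0. The mean was -0.63 ± 0.63 (SD, n = 4), with a 95% interval of -1.70 to 0.44, a limma adjusted p of 0.47 and an exact sign-flip p of 0.25 where 4 arrays allow no p under 0.125. Feature 30413 had -1.75 on array 1 and 0.96 on array 3, the only arrays on which it was usable.

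Hsd11b1 encodes the enzyme that regenerates active corticosterone inside the cell from its inert keto form. Its log2 ratio was 0.05, 0.46, -1.54 and -2.39 on arrays 1 to 4. The values were above 0 on arrays 1 and 2, at the 52.6th and 63.8th percentiles of all genes, and far below 0 on arrays 3 and 4, at the 13.1th and 4.84th. The mean of -0.85 ± 1.34 (SD, n = 4), the lowest of the 8 genes, had a 95% interval of -2.08 to 0.38 and a limma adjusted p of 0.39. On arrays 1 and 2 alone it was 0.26. Its 1 feature was listed at 0 on array 5.

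Crhr1 encodes the main receptor of corticotropin-releasing hormone in the forebrain. It was the only stress axis gene above 0 on every array, with log2 ratios of 0.31, 2.76, 1.14, 0.80 and 0.62. Array 2 was the highest, at the 93.6th percentile of all genes, and the other arrays stood between the 61.9th and the 77.7th. The mean was 1.13 ± 0.96 (SD, n = 5), a ratio of 2.19 with a 95% interval of 1.09 to 4.38. The limma adjusted p was 0.16 and the exact sign-flip test, with the same sign on 5 of 5 arrays, gave the smallest p that 5 arrays allow, which is above the threshold. Of all genes and features tested, 87.1% had a lower mean.

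Both features of Crhr1 were above 0 on average but not alike. Feature 43207 had 0.98, 3.35, 0.77 and 2.15 on arrays 1 to 4, above 0 on 4 of 4, with a mean of 1.81 and a limma adjusted p of 0.068 among single features. Feature 20421 had -0.35, 2.18, 1.51, -0.54 and 0.62. It was below 0 on arrays 1 and 4, and its mean of 0.68 had a limma adjusted p of 0.45. Array 2, the highest for Crhr1, also had the highest median of the 11 interneuron markers tested, 1.28 against 0.31 to 0.63 on the others. This was not particular to interneuron markers. Array 2 also had the highest median of the receptor chaperones and cofactors (1.38) and of the CRH family and pituitary-adrenal hormones (0.95). It was not the highest for the other lists described below. The part of interneurons in the Crhr1 value was not tested.

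Crhr2 encodes the receptor preferred by urocortins 2 and 3. It had log2 ratios of -1.20, -1.57, 1.00 and 0.15 on arrays 1, 3, 4 and 5, and its feature was listed at 0 on array 2. The arrays were evenly split, and the mean of -0.40 ± 1.19 (SD, n = 4) had a 95% interval of -1.59 to 0.79 and a limma adjusted p of 0.70. The difference of the receptors within an array does not depend on the array's reference level. Crhr1 exceeded Crhr2 by 1.51, 2.71 and 0.47 on arrays 1, 3 and 5, and on array 4 the difference was -0.20. The mean difference was 1.12 ± 1.27 (SD, n = 4), with an exact two-sided sign-flip p of 0.25, or 0.50 adjusted over the 2 pairs that could be compared. The mean difference was smaller than its SD.

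Crhbp encodes the secreted protein that binds corticotropin-releasing hormone and holds it from its receptors. The log2 ratios were 1.13, -1.72, -0.63, 0.64 and -1.26. It was above 0 on arrays 1 and 4 and below 0 on the other 3, from the 82.9th percentile of array 1 to the 10.6th of array 2. The mean was -0.37 ± 1.22 (SD, n = 5), with a 95% interval of -1.44 to 0.70 and a limma adjusted p of 0.69. The other pair compared, the receptor-induced genes Fkbp5 and Tsc22d3, differed by -0.11 ± 1.05 within arrays (SD, n = 5, Fkbp5 higher on 2 of 5), with an exact sign-flip p of 0.625, the same after adjustment.

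Taken by array, the genes lay on both sides of 0 each time. Their median log2 ratio was 0.05, -0.55, -0.37, 0.64 and 0.15 on arrays 1 to 5, and the number below 0 was 3 of 8, 5 of 7, 5 of 8, 3 of 7 and 3 of 7. On array 4 the range ran from -2.39 for Hsd11b1 to 1.00 for Crhr2.

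Most values behind these means were coarse. Of the 85 feature values of the 8 genes, 18 were an exact 0, 1 (feature 40648 of Nr3c1 on array 5) was at the upper limit, a ratio of 100000, and 66 were usable, and of these 44 (66.7%) equalled the log2 ratio of 2 whole numbers up to 30 to 3 decimals, beside 62.9% over all features. In 25 of the 44 both whole numbers were at or under 10. On array 4, for example, the value -1.32 as deposited, which equals 2 over 5, was given for 1 feature of Crhr1 and for 2 of Fkbp5. Crhbp had 1 over 19 on array 2 and 1 over 2 on arrays 3 and 5. The share of such values was 34.0% and 38.2% of all usable features on arrays 1 and 2 and between 85.8% and 86.7% on the other arrays. A match can also arise by coincidence, and the part of this coarseness in the values was not tested.

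The sign of a gene's value also depended on what was taken as 0. As deposited, with no centring, all 8 means were below 0, and 1 gene, Hsd11b1, passed the test at -2.44 (limma adjusted p = 0.023), where the median of all tested was itself -1.52. Relative to Actb, which encodes cytoplasmic actin and had a mean of 2.66 ± 1.21 (SD, n = 5) against the array medians, all 8 were below 0 and passed, with the median of all tested at -2.90. Relative to Gapdh, a glycolytic enzyme with a mean of -1.08 ± 1.54 (SD, n = 4), all 8 were above 0 and none passed, with the median of all tested at 1.23. Gapdh had no usable value on array 4, so that array dropped out there, and with it the lowest value of Hsd11b1, -2.39. Relative to 72 ribosomal protein genes all 8 were below 0 and 7 passed, all but Crhr1. Apart from the array lost with Gapdh, these references shift all genes of an array alike. The direction of the calls over all tested turned with them. Against the array medians 1651 were higher and 325 lower, and as deposited 63 and 8111. Relative to ribosomal protein genes they were 42 and 19019, and relative to Actb 10 and 24330. Relative to Gapdh, without array 4 and with 24964 tested, they were 1940 and 2.

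**Figure D3:**
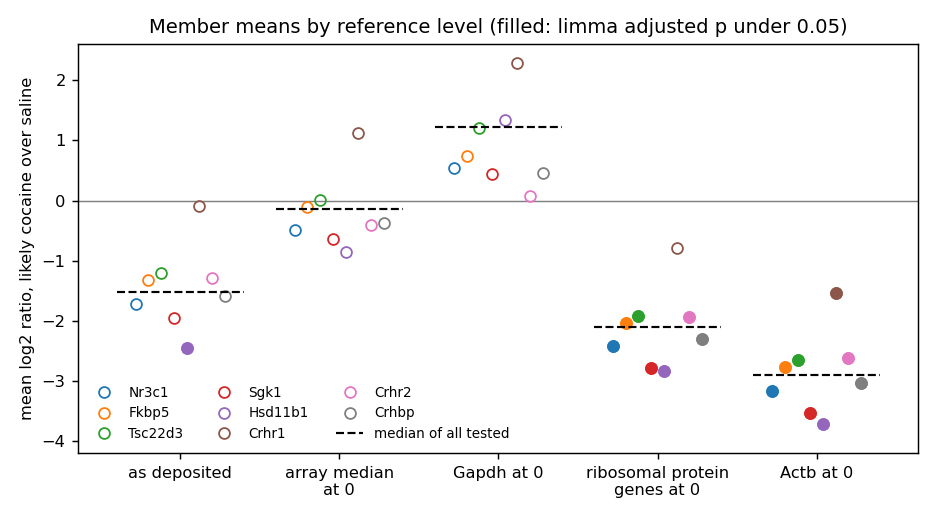
Mean log2 ratio, likely cocaine over saline, of the 8 measured stress axis genes when values were taken as deposited, or relative to the array median, Gapdh, 72 ribosomal protein genes or Actb, with the median of all tested as a dashed line. Means relative to Gapdh leave out array 4. Filled points had a limma adjusted p under 0.05, and the whole group followed the dashed line from 1.23 relative to Gapdh to -2.90 relative to Actb.

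Of the wider CRH family and pituitary-adrenal hormones, 2 of 11 tested genes rose and none fell, with a median of -0.06. Avp, which encodes vasopressin, a hypothalamic hormone that acts with corticotropin-releasing hormone on the pituitary, had 6.06, 6.88, 5.18, 3.51 and 4.16. It was far above 0 on every array, with a mean of 5.16 ± 1.37 (SD, n = 5) and a limma adjusted p of 6.4e-04. Ucn3, a urocortin that binds Crhr2, had 1.15, 5.10 and 3.92 on arrays 2 to 4, its only usable arrays. Its mean was 3.39 with a limma adjusted p of 0.019, which became 0.065 when array 1 was left out of the whole fit. Relative to ribosomal protein genes it was 1.48 (limma adjusted p = 0.19), and relative to Actb 0.70 (limma adjusted p = 0.51). The call held in 8 of the 15 alternative settings that tested Ucn3. The other urocortins, Ucn and Ucn2, averaged -0.06 and -0.56, and Pomc, the precursor of the pituitary hormone that drives the adrenal, averaged -0.55 (limma adjusted p = 0.57).

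Vasopressin neurons lie mainly in the hypothalamus, and the tissue that was cut was the hippocampal pyramidal layer. Of 10 markers of hypothalamus and pituitary tested, Avp and Oxt, the oxytocin gene, rose, beside 7.05% of all tested called. The other 8 did not pass, with a list median of -0.26 and array medians from -2.06 to 0.96. Avp is the same gene that was counted in the CRH family list. Oxt averaged 2.88 (n = 4, limma adjusted p = 0.031) and lost the call without array 1, 2 or 3, at 0.13, 0.065 and 0.11. It lay at 0.013 relative to Actb, 0.89 relative to ribosomal protein genes and 5.33 relative to Gapdh. Sim1 and Otp, transcription factors of vasopressin neurons, averaged -1.36 and -1.32 and did not pass. The part of tissue beyond the pyramidal layer in the Avp value was not tested.

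Among the receptor chaperones and cofactors, 2 of 16 tested genes rose and none fell, 14 of 16 lay above 0 and the median was 0.70. Over all tested 55.8% lay below 0, and the median was 0.17 over those measured on all 5 arrays. Hsp90aa1, the inducible form of the chaperone that holds the receptor ready for hormone, had 2.44, 2.74, 1.82, 0.85 and 2.20, a mean of 2.01 ± 0.73 (SD, n = 5, limma adjusted p = 0.017). Hspa8, a chaperone that loads the receptor into that complex, had a mean of 1.99 ± 1.08 (SD, n = 5, limma adjusted p = 0.025). Both were above 0 on every array. Without array 1 their adjusted p was 0.072 and 0.090, and without array 2 it was 0.068 and 0.091. Fkbp4, which competes with Fkbp5 for the receptor complex, averaged 0.32 (limma adjusted p = 0.71). Relative to Actb, where the median of all tested was -2.90, both chaperones lay below 0, at -0.65 and -0.67, and relative to Gapdh, where it was 1.23, they lay at 3.38 and 3.25 with limma adjusted p of 0.015 and 0.020. Relative to ribosomal protein genes Hsp90aa1 and Hspa8 lay at 0.086 and 0.062 (limma adjusted p = 0.90 and 0.92). Without centring they lay at 0.79 and 0.77 (limma adjusted p = 0.38 and 0.39).

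Of 24 tested glucocorticoid-responsive genes, 2 rose and none fell, with a median of 0.23. Nfkbia, which encodes the inhibitor of NF-kappaB, had 2.19, 2.78, 1.30, 2.45 and 1.94, a mean of 2.13 ± 0.56 (SD, n = 5, limma adjusted p = 0.014). Cdkn1a, a cell cycle inhibitor, had 2.74, 1.43, 2.05, 0.99 and 1.41, a mean of 1.72 ± 0.68 (SD, n = 5, limma adjusted p = 0.031). Both answer to other signals as well, NF-kappaB and p53 among them, and relative to Actb they lay below 0, at -0.53 and -0.94. The call of Nfkbia was lost without array 1 or 2, at 0.065 and 0.062, and that of Cdkn1a without array 1, 2 or 3, at 0.12, 0.072 and 0.070. Several well-known targets of the receptor were among the 22 that did not pass. Klf9, a transcription factor, averaged 0.11, Dusp1, a MAP kinase phosphatase, -0.32, and Ddit4, an inhibitor of mTOR, 0.87. Per1, a clock gene, averaged -0.82, with -2.68 on array 1 and between -0.48 and 0.04 on arrays 2 to 4. Others that did not pass had an unadjusted limma p under 0.05. Angptl4 (1.67), Gadd45a (1.45), Arrdc2 (1.36), Mt2 (1.23), Tat (1.08) and Cdkn1c (0.98) lay above 0, and Bcl6 (-1.79) lay below.

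Of 16 genes of the SGK1 kinase pathway, 1 rose and none fell, with a median of 0.04. Ndrg2, of the family whose members SGK1 phosphorylates, had 0.855, 1.583, 1.945, 1.527 and 1.915, a mean of 1.57 ± 0.44 (SD, n = 5, limma adjusted p = 0.038). It is also abundant in astrocytes, and it lay below 0 relative to ribosomal protein genes (-0.36) and to Actb (-1.09). Leaving out any 1 array raised its adjusted p to between 0.070 and 0.089. Of the 14 tested genes of steroid synthesis and metabolism none passed, with a median of 0.01. The smallest p values were those of Hsd11b2, which inactivates corticosterone, at 1.15 (limma adjusted p = 0.23), and of Star, which carries cholesterol into mitochondria, at -0.75 (limma adjusted p = 0.30). The counts of calls in the 5 lists stand beside 7.05% of all tested. Few values of the 7 called genes were whole-number ratios, beside 62.9% over all features. Such values were 0 of 5 for Hsp90aa1, Cdkn1a and Ndrg2 and 1 of 5 for Avp. Hspa8 had 1 of 10, Nfkbia 2 of 5 and Ucn3 1 of 3. With such ratios left out, 50.1% of the 5222 genes and features still tested were called, with a median of 1.37. The part of this in the calls was not tested. At an unadjusted limma p under 0.05 the counts were 2 of 11 for the CRH family and pituitary-adrenal hormones, 5 of 16 for the chaperones and cofactors, 9 of 24 for the glucocorticoid-responsive genes, 4 of 16 for the SGK1 pathway and 0 of 14 for steroid synthesis and metabolism, beside 23.8% of all tested.

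**Figure D4:**
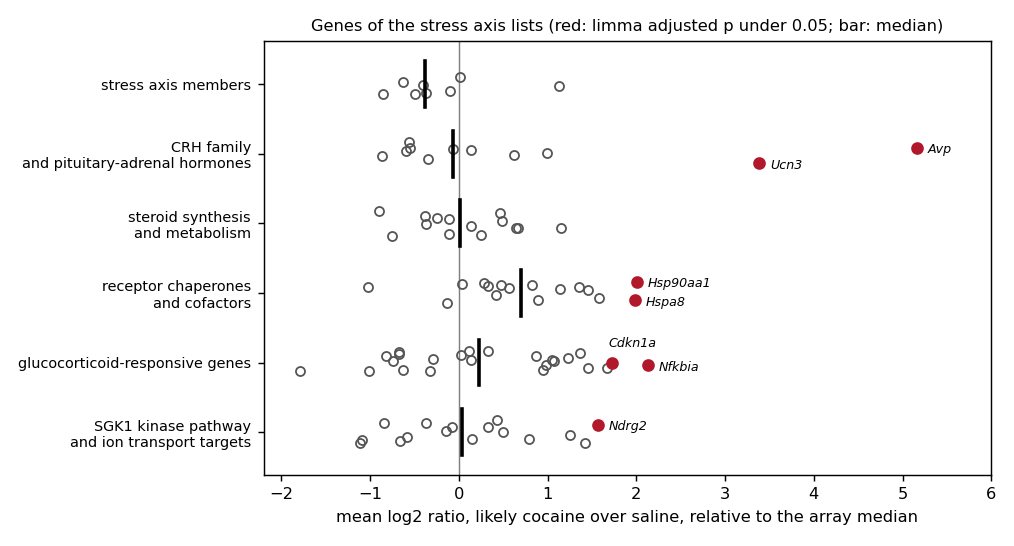
Mean log2 ratio, likely cocaine over saline and relative to the array median (horizontal axis), of each tested gene of the stress axis and of the 5 wider lists, with the list median as a bar. Red points are the 7 genes with a limma adjusted p under 0.05, all above 0, led by Avp at 5.16.

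Markers of the cut layer and of other cell types were read in the same way. Of the pyramidal neuron markers 1 of 10 rose, beside 7.05% of all tested called, and the list had 6 means above 0, 4 below and a median of 0.03. The gene that rose was the glutamate transporter gene Slc17a6, at 1.87 (n = 4, limma adjusted p = 0.044), and its call was lost without array 1, 2 or 3, at 0.16, 0.093 and 0.12. It lay below 0 relative to ribosomal protein genes (-0.11) and to Actb (-0.996), and above 0 relative to Gapdh (3.89). Of the 11 interneuron markers none passed, 9 lay above 0 and the median was 0.76, and Gad2, an enzyme of GABA synthesis, had the smallest p at 1.61 (limma adjusted p = 0.056). None of the 11 astrocyte and oligodendrocyte, 11 microglia and vascular or 8 Cajal-Retzius cell markers passed, with medians of 0.44, -0.35 and -0.21. At an unadjusted limma p under 0.05 the counts were 2 of 10 pyramidal and 4 of 11 interneuron markers. They were 4 of 11 astrocyte and oligodendrocyte, 2 of 11 microglia and vascular and 1 of 8 Cajal-Retzius markers. For hypothalamus and pituitary markers the count was 3 of 10, and 23.8% of all tested reached that p. The ordinary test of each mean, with adjustment, called 1 of all 28035. The part of these cell types in the stress axis values was not tested.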

How the data were processed

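The deposited values were log2 ratios of the 2 channels, 1 per feature and array. Image reading, background removal, normalization and genome build were not given in the sources used here, and the log base was inferred from recurring ratios of whole numbers. The authors' table was used as deposited, except that exact zeros (21.2% of member values) and the upper limit, a ratio of 100000, were taken as not measured. Features were named through the platform's probe table (32042 of 44290 with 1 symbol, 47 with several, 12201 with none) and symbols updated through RefSeq identifiers. Each array was centred on its median and features of 1 symbol were averaged. The test across genes, for those measured on 3 arrays or more, was limma 3.58.1 under R 4.3.3 (intercept fit, empirical Bayes, Benjamini-Hochberg threshold 0.05). The same fit was also run on simulated normal values that took their spread and missing pattern from these data. Single genes, gene pairs and feature pairs were also tested by exact two-sided sign-flip permutation over arrays. The members, gene lists and settings were chosen with earlier results of these data known. All stress axis genes were named, and every list gene past the threshold. In lists with none, those with the smallest p were considered. Other list genes were named for their role or their unadjusted p after their values had been seen. The number of arrays limits the precision. Alternatives covered reference level, zeros, filters, averaging, tests and left-out arrays.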

Additional observations from a re-analysis of the deposited data

Results flagged for a closer look

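All 8 measured stress axis genes and those list genes named by the rule that were measured on 4 or 5 arrays were examined, 26 genes in all. An array stood apart from the others in 2 of them, neither a stress axis gene. The nominal rate of the criterion is about 1 in 20 for normally spread values, and its rate on these data was not tested. Hsd11b2 stood at 3.07 on array 3 and between 0.42 and 0.68 on its other arrays. S100b, a calcium-binding protein of astrocytes, stood at 0.49 on array 5 and between 1.60 and 2.03 on the others.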

How the results depend on the processing

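No paired analysis was possible because the arrays form 1 group whose ratios already set cocaine against saline. Over 23 alternatives, the count of stress axis genes past the threshold stayed at 0 in 20 and became 1 without centring, 7 relative to ribosomal protein genes and 8 relative to Actb. Calls over all tested and over the 5 pathway lists (1976 and 7) became 8174 and 16 without centring. Relative to ribosomal protein genes they were 19061 and 47, and relative to Actb 24340 and 64. With exact zeros kept they were 62 and 1, and with zeros and limit kept 0 and 0 (3740 unadjusted). The ordinary test of each mean gave 1 and 0, arrays 3 to 5 alone 0 and 0 (2722 unadjusted) and single features 2993 and 12. Without whole-number ratios the lists gave 13, and 2614 of the 5222 genes and features still tested were called (50.1%, beside 7.05%). Leaving out 1 array gave 64 to 1950 and 1 to 6. The causes were not tested.

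The median of the stress axis genes moved from -0.39 to -1.45 without centring, -2.16 relative to ribosomal protein genes, 0.64 to Gapdh, -2.90 to Actb and 0.52 without whole-number ratios, where 2 of the 8 genes were left. The medians of all tested were -1.52, -2.10, 1.23, -2.90 and 1.37 there.

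The sign turned in these cases. Crhr1 was -0.089 without centring, -0.80 relative to ribosomal protein genes and -1.53 relative to Actb (limma adjusted p = 0.041). Tsc22d3 was -1.21, -1.91 and -2.65 there, -0.10 with zeros kept, -0.11 with zeros and limit kept, -1.45 as its single strongest feature and between -0.087 and 0.14 with 1 array left out. Relative to Gapdh, where array 4 dropped out, Nr3c1 was 0.54, Crhr2 0.072, Crhbp 0.46, Fkbp5 0.74, Hsd11b1 1.34 and Sgk1 0.44. Nr3c1 was 0.40 with zeros and limit kept, and Fkbp5 was 0.061 with zeros kept, 0.054 with both kept, 0.42 on arrays 3 to 5 alone and between -0.34 and 0.18 with 1 array left out. Hsd11b1 was 0.26 on arrays 1 and 2 alone. Relative to Actb, Hsp90aa1 was -0.65, Hspa8 -0.67, Nfkbia -0.53, Cdkn1a -0.94, Ndrg2 -1.09 and Slc17a6 -0.996, and relative to ribosomal protein genes Cdkn1a was -0.20, Ndrg2 -0.36 and Slc17a6 -0.11. Avp kept its direction under all 23 alternatives and lost its call in 3 of them. The number of arrays limits what could be detected.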
